A study of Homo sapiens with 6 samples.

Results

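Ether lipid and glycerophospholipid metabolism comprised the 102 genes, of 35856 in the deposited table, whose KEGG annotation in that table named either of these 2 pathways. KEGG is a collection of curated pathway maps. Of these genes, 41 carried the ether lipid annotation and 90 the glycerophospholipid annotation, with 29 in both. The members were grouped into 14 lists by the reaction they catalyse.

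Glycerophospholipids are the main lipids of cell membranes. They are built on glycerol 3-phosphate, which is acylated to lysophosphatidic acid and then to phosphatidic acid. Phosphatidic acid feeds a diacylglycerol route to phosphatidylcholine and phosphatidylethanolamine, and a CDP-diacylglycerol route to phosphatidylinositol and cardiolipin. Ether lipids, among them plasmalogens and platelet-activating factor, carry a fatty alcohol in place of an acyl chain and are started in peroxisomes. Phospholipases and acyltransferases then exchange the acyl chains of the finished lipids. The liver makes phospholipids for its own membranes and also for lipoproteins and bile.

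RNA was sequenced from HCCLM3, an established human hepatocellular carcinoma cell line. In the LINC00862 group the cells were transfected with a vector carrying the long non-coding RNA LINC00862, and in the control group, Empty (NC in the sample labels), with a vector lacking it. Each group held 3 libraries of poly(A)-selected RNA. The labels do not say whether these came from separate cultures, so p-values measure only the spread between these samples, which may be technical. The comparison asked which genes and pathways changed when LINC00862 was overexpressed.

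Total counts lay between 58241123 and 68229070 per library, and members took 0.283% to 0.350% of them. The summed FPKM (the fragments of a gene relative to its length and to library depth) of the members was 517 to 574 in Empty and 466 to 554 in LINC00862, so the groups overlapped. LINC00862 itself, the check of the labels, had 38 counts summed over the Empty libraries and 342 over the LINC00862 libraries. The log2 fold change was 3.22 (SE 0.53, adjusted p = 0.000583, edgeR). Its level was low, at 0.021 to 0.088 FPKM in Empty and 0.312 to 0.530 in LINC00862. Because 28.9% of all tested genes rose at least 2-fold, this rise alone cannot settle the labels. The groups also stood apart in cell type markers. The summed FPKM of 8 mesenchymal markers was 950 to 972 in Empty and 7.11 to 7.81 in LINC00862, with 8 of 8 lower. That of 8 epithelial markers was 6.24 to 7.39 and 320 to 400, with 7 of 8 higher. For 9 hepatocyte markers the sum was 2.94 to 3.46 in Empty, although the line is labelled as hepatoma cells, against 539 to 619 in LINC00862, where fibrinogen beta (FGB) made up most of it. Of the 8 hepatocyte markers tested, 7 were higher and 1 was lower. Of the other lists, 4 hepatoma markers summed to 193 to 287 and 253 to 303 FPKM, nearly all of it the keratins KRT8 and KRT18. AFP, another of these, had 68 counts summed over Empty and 0 over LINC00862, and GPC3 had 0 and 17. The 4 endothelial markers summed to 1.17 to 1.74 and 4.44 to 5.89 FPKM. Of these, CDH5 was higher (mean 0.403 FPKM in Empty and 4.47 in LINC00862), and PECAM1, VWF and KDR did not pass. The 5 haematopoietic markers, nearly all of it beta-globin (HBB), summed to 733 to 820 and 515 to 645. The results for members moved with these markers, whose part in them was not tested. Whether both groups came from the same line or clone was not tested either, and a difference of that kind cannot be told apart from an effect of LINC00862 in any fold change given here. In bulk RNA, fewer cells of a type and less RNA per cell cannot be told apart.

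Of the 102 members, 94 had enough counts to be tested and 82 of them changed, 40 upward and 42 downward (edgeR quasi-likelihood test, Benjamini-Hochberg adjusted p under 0.05 over all genes). This was 87.2% of the tested members, where 64.2% of all 20741 tested genes changed. The background share was 34.4% upward and 29.8% downward. Of the 80 members whose group mean reached 1 FPKM in either group, 70 changed, against 70.6% of all such genes, and 70.1% of all tested genes with any KEGG pathway changed. At least 2-fold changes were found in 30 members that rose and 25 that fell, where 49.8% of all tested genes changed by this much, 28.9% upward and 20.9% downward. The FPKM of the groups did not overlap in 85 tested members (90.4%), against 71.1% of all tested genes. The median log2 fold change of the tested members was -0.31, with the same value when genes at 0 in a group were set at their bounds, and that of all tested genes was 0.11. The 8 untested members, PCYT1B, DGKB, PLA2G1B, PLA2G2F, PLA2G4D, PLA2G4F, PLA2G12B and PLD4, had at most 62 counts summed over any group.

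Rises and falls occurred side by side in 12 of the 14 enzymatic lists. Of the 35 tested genes of ether lipid metabolism, 19 rose and 14 fell (median log2 fold change 0.88). Of the 82 tested genes of glycerophospholipid metabolism, 36 rose and 34 fell (median -0.23). All 12 genes of ether lipid metabolism alone changed, and 8 of these fell. A test of the difference between the pathways was not made.

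**Figure D1:**
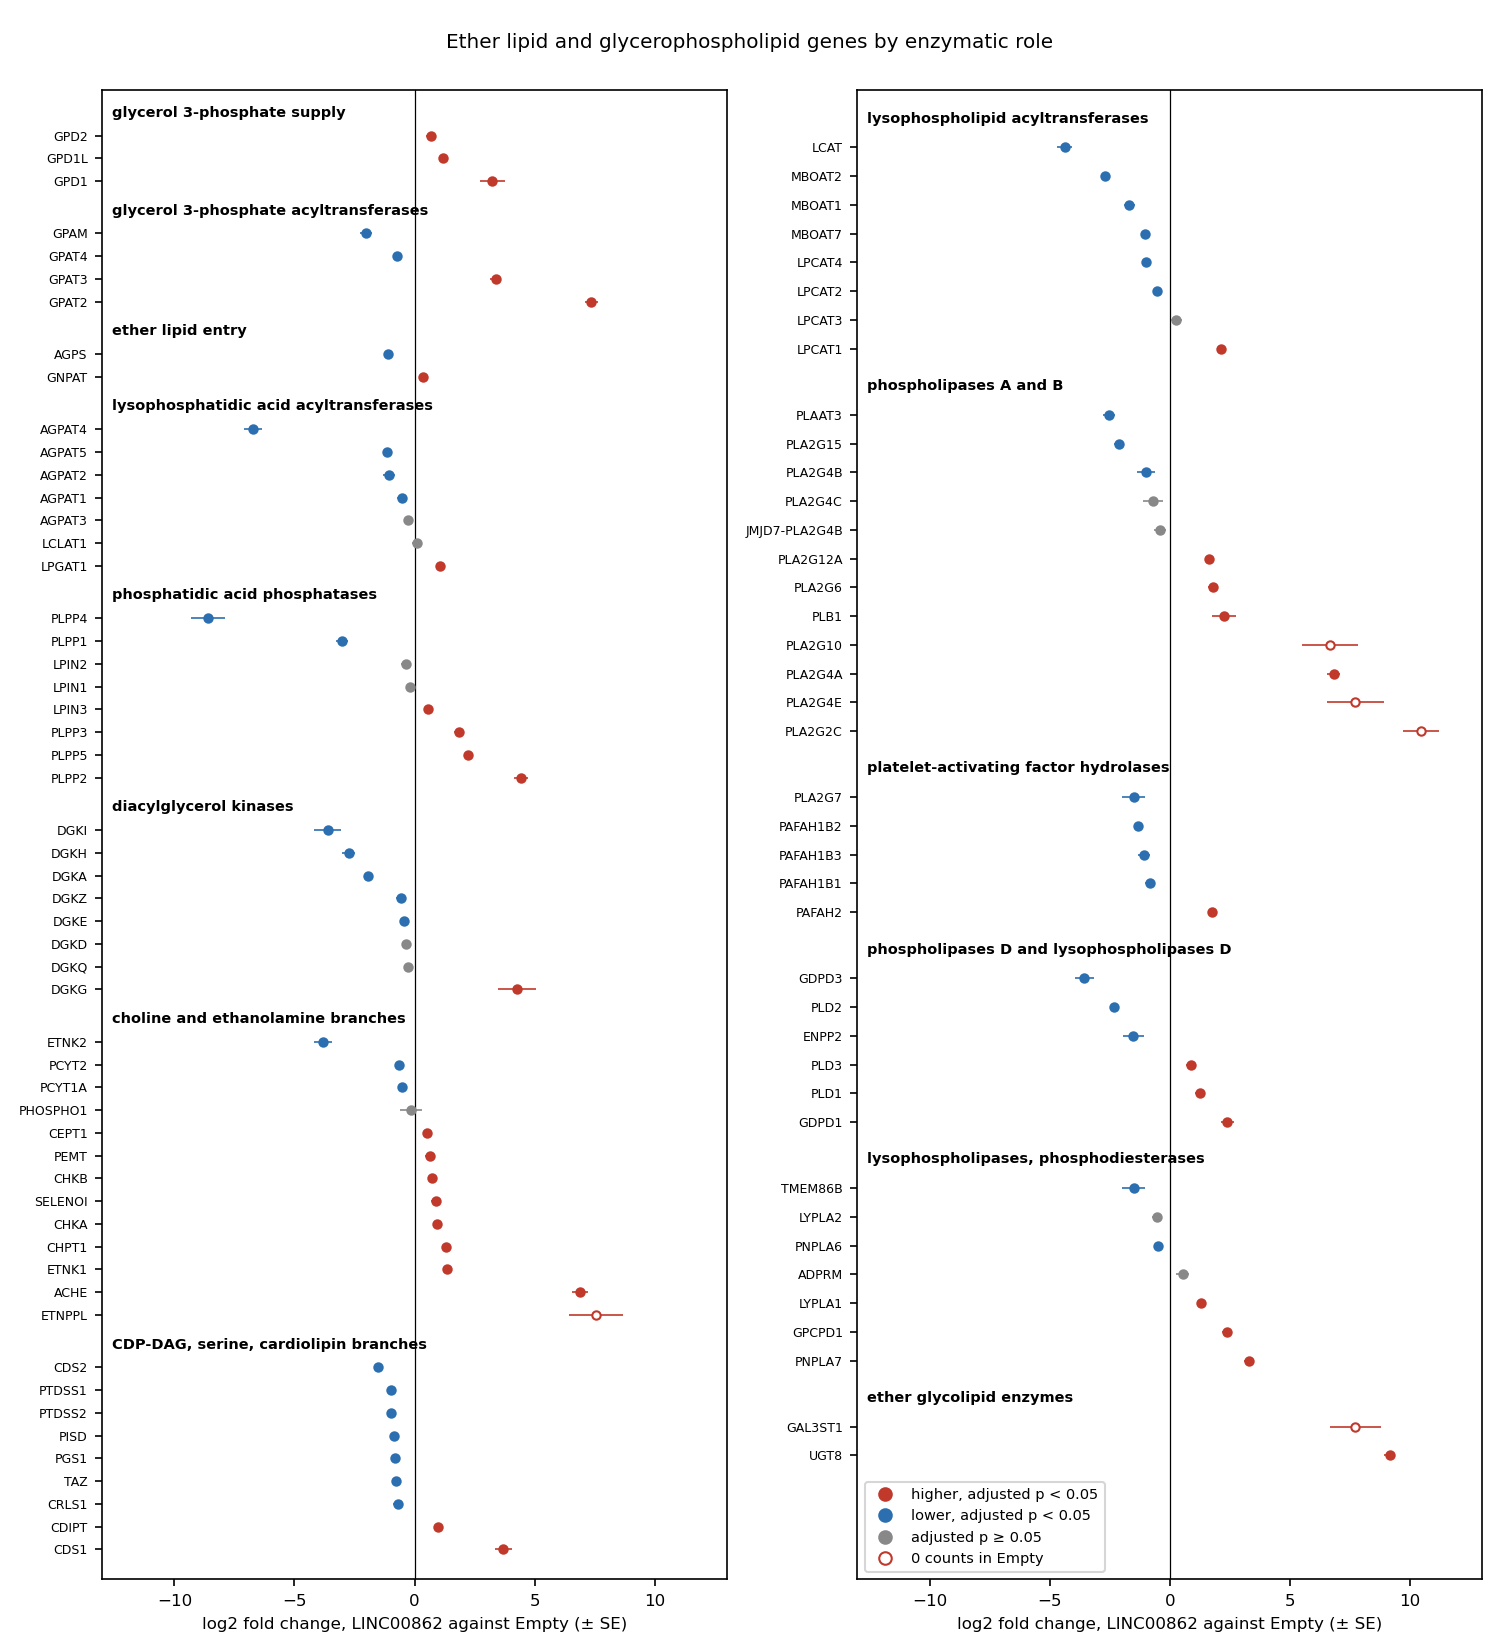
Log2 fold change of LINC00862 against Empty (horizontal axis, with SE) for the 94 tested members, grouped by enzymatic role. Red points rose, blue points fell and grey points did not pass an adjusted p of 0.05. Open points had 0 counts in Empty, so that their position depends on the prior count of the fit.

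The order of the most abundant members differed between the groups. In Empty, the highest mean FPKM were those of PAFAH1B3 (35.2 ± 9.99, SD, n = 3), LYPLA2 (29.6 ± 7.21), AGPAT2 (26.0 ± 7.55), PLD3 (25.0 ± 4.41) and PTDSS1 (20.7 ± 2.75). The ranges of neighbours in this order overlapped. In LINC00862 they were those of PLD3 (41.2 ± 5.20), CDIPT (29.9 ± 5.57), LYPLA1 (24.1 ± 5.22), GNPAT (19.0 ± 2.21) and LPCAT1 (18.6 ± 2.03). PLD3 was above CDIPT in every LINC00862 library, whereas the ranges of the following neighbours overlapped. PLD3 was the gene shared by both lists.

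**Figure D2:**
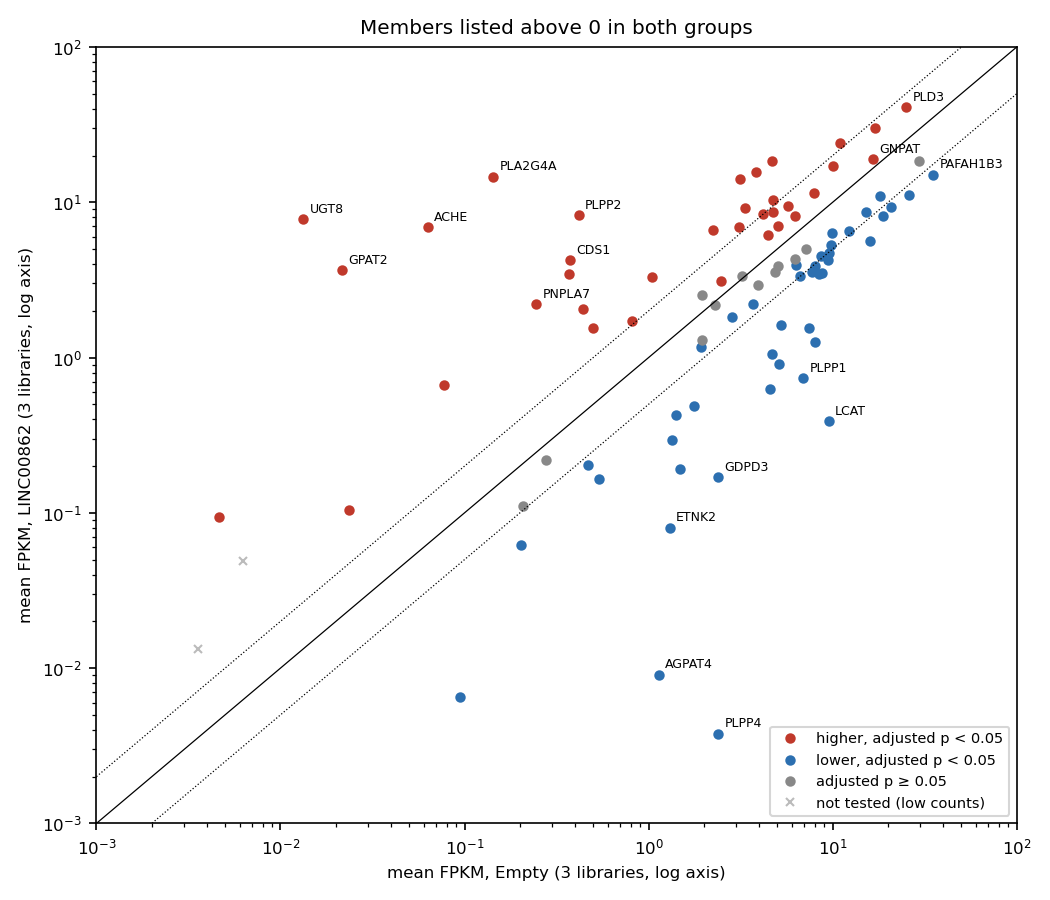
Mean FPKM in Empty (horizontal, log axis) against mean FPKM in LINC00862 (vertical, log axis) for the 91 members above 0 in both groups. The solid line marks equal values, the dotted lines a fold change of 2, and crosses mark untested members. Points far from the diagonal include UGT8, GPAT2, ACHE and PLA2G4A above it and PLPP4 and AGPAT4 below it.

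The promoters of 3 members are shown because these genes stood at the extremes, a choice made after their values were seen. UGT8 had the largest rise and PLPP4 the largest fall among members whose group mean reached 1 FPKM in either group, and PLA2G4A made up most of the signal of its family in LINC00862. The 250 bases before the start of each gene were taken from RefSeq (GRCh38.p14), which held 82 of the members. Capitals mark matches, on either strand, of 5 motifs that were searched by their letters. These were the GC box with the letters GGGCGG, the CCAAT box, the TATA box with the letters TATAAA, an E-box with the letters CAGGTG and an E-box with the letters CACGTG. The motifs do not overlap within the windows shown.
UGT8, chr4:114598152-114598401, plus strand: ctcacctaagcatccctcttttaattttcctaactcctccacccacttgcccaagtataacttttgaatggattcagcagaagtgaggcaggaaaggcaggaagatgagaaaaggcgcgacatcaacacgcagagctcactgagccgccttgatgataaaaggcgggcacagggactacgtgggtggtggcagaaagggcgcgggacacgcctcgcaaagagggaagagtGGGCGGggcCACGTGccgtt
PLA2G4A, chr1:186828699-186828948, plus strand: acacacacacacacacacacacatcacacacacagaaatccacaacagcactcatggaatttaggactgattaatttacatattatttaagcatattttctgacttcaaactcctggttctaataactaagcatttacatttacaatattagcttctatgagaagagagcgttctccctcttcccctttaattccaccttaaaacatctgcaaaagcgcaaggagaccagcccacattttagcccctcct
PLPP4, chr10:120456704-120456953, plus strand: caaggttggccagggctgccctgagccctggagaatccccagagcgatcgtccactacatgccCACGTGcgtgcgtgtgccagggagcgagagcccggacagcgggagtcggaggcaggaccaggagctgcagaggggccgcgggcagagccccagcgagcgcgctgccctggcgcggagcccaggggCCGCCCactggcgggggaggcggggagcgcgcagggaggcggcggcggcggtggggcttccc

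The 3 promoters differed in composition. GC content was 54.8% for UGT8, 38.8% for PLA2G4A and 75.6% for PLPP4, and the medians were 65.2% over the 82 member promoters, 64.4% over the promoters of all tested genes and 58.0% over all 35116 promoters. UGT8 and PLPP4 each held 1 GC box and 1 CACGTG, and PLA2G4A held none of the 5 motifs. Among member promoters, 59.8% held a GC box, 24.4% CCAAT, 1.22% TATAAA, 14.6% CAGGTG and 9.76% CACGTG. The shares in the promoters of all tested genes were 63.0%, 34.5%, 6.53%, 16.5% and 8.55%, in the same order. These matches are descriptions of letters in a window, and binding was not measured.

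In the first step, the supply and acylation of glycerol 3-phosphate, 5 of 7 genes rose and 2 fell. The 3 glycerol 3-phosphate dehydrogenases, which link glycolysis to glycerolipids, all rose. GPD1L had 5.27, 3.56 and 3.67 FPKM in Empty and 8.68, 9.05 and 7.34 in LINC00862 (log2 fold change 1.18, SE 0.16, adjusted p = 0.000175). GPD2, the mitochondrial form, rose less (0.68, SE 0.20, adjusted p = 0.0147), its groups overlapped, with Empty replicate 1 at 7.10 FPKM, and its call was lost in 5 of 13 alternative analyses. Of the 4 glycerol 3-phosphate acyltransferases, 2 rose and 2 fell. GPAT4, a form of the endoplasmic reticulum, had 12.8, 10.8 and 13.2 FPKM in Empty and 6.29, 7.69 and 5.51 in LINC00862 (-0.75, SE 0.15, adjusted p = 0.00202). GPAM, a mitochondrial form, had 1.67, 1.20 and 1.15 FPKM against 0.340, 0.328 and 0.210 (-2.02, SE 0.24, adjusted p = 7.72e-05). Every Empty library was above every LINC00862 library for both. GPAT3 ran the other way, with 0.384, 0.314 and 0.409 FPKM against 3.97, 3.72 and 2.71 (3.38, SE 0.24, adjusted p = 3.24e-06). GPAT2, known mainly from testis, was near 0 in Empty (0.022, 0.018 and 0.025 FPKM) and reached 3.40, 4.56 and 3.04 FPKM in LINC00862 (7.35, SE 0.28, adjusted p = 1.02e-07). The 4 genes together gave 14.0 ± 1.44 FPKM in Empty and 13.9 ± 2.42 in LINC00862, a ratio of 0.996, while the share of GPAT4 was 87.6% in Empty and 46.7% in LINC00862.

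The 2 peroxisomal enzymes that open ether lipid synthesis moved in opposite directions. AGPS, which introduces the ether bond, had 11.1, 7.91 and 6.41 FPKM in Empty and 3.45, 3.62 and 3.30 in LINC00862 (-1.11, SE 0.18, adjusted p = 0.000507), without overlap. GNPAT, which makes its substrate, had 17.0, 16.7 and 16.3 FPKM against 20.1, 20.3 and 16.4 (0.36, SE 0.13, adjusted p = 0.0373). Its groups overlapped, and this call was lost in 8 of 13 alternative analyses. TMEM189, which encodes the desaturase that forms the vinyl ether bond of plasmalogens, was not annotated to either pathway in the table. It had 8.53 ± 1.41 FPKM in Empty and 2.31 ± 0.36 in LINC00862 (-1.72, SE 0.19, adjusted p = 4.66e-05), and shares sequence with a read-through gene, TMEM189-UBE2V1, that was above 0 in Empty replicate 1 alone.

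The list of lysophosphatidic acid acyltransferases held 5 AGPAT genes, whose family forms phosphatidic acid, with LPGAT1, known as a lysophosphatidylglycerol acyltransferase, and LCLAT1, known as a lysocardiolipin acyltransferase. Of the AGPAT genes, 4 fell and 1 did not pass the test. AGPAT4 had 1.10, 1.14 and 1.17 FPKM in Empty and 0.004, 0.014 and 0.009 in LINC00862, or 3218 against 28 counts (-6.72, SE 0.37, adjusted p = 8.03e-07). AGPAT2, a major form in liver and fat, fell by 1.06 on the log2 scale (SE 0.24, adjusted p = 0.00358), and AGPAT5 by 1.13 (SE 0.15, adjusted p = 0.000192). LPGAT1 rose, with 6.30, 3.94 and 4.06 FPKM against 8.99, 8.99 and 8.17 (1.06, SE 0.17, adjusted p = 0.000516). AGPAT3 (-0.26, adjusted p = 0.125) and LCLAT1 (0.10, adjusted p = 0.673) did not pass. The 5 AGPAT genes summed to 58.7 ± 8.32 FPKM in Empty and 29.3 ± 3.96 in LINC00862.

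The phosphatases that turn phosphatidic acid into diacylglycerol held the largest fall of all tested members. PLPP4, a membrane lipid phosphate phosphatase, had 1.78, 2.61 and 2.79 FPKM in Empty, and 0.011, 0 and 0 in LINC00862. Its counts summed to 1768 and 4 (-8.60, SE 0.70, adjusted p = 7.87e-06). PLPP1 had 6.30, 7.05 and 7.41 FPKM against 0.819, 0.611 and 0.786 (-3.04, SE 0.25, adjusted p = 7.97e-06). The other 3 membrane forms rose. PLPP5 had 4.12, 3.82 and 3.50 FPKM in Empty and 16.4, 15.3 and 15.3 in LINC00862 (2.21, SE 0.14, adjusted p = 1.54e-06). PLPP2 had 0.278, 0.552 and 0.419 FPKM against 8.92, 9.17 and 6.77 (4.45, SE 0.29, adjusted p = 2.11e-06), and PLPP3 rose by 1.84 (SE 0.21, adjusted p = 6.11e-05). None of these 5 genes overlapped between the groups. The soluble phosphatases, the lipins, moved little. LPIN3 rose by 0.57 (SE 0.14, adjusted p = 0.00507), and LPIN1 (-0.19, adjusted p = 0.361) and LPIN2 (-0.35, adjusted p = 0.137) did not pass.

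The diacylglycerol kinases, which run the reverse reaction, had 1 rise and 5 falls among 8 tested genes. DGKA had 4.90, 5.06 and 4.07 FPKM in Empty and 1.13, 0.999 and 1.05 in LINC00862 (-1.95, SE 0.15, adjusted p = 6.80e-06). DGKH had 2.17, 1.19 and 1.07 FPKM against 0.212, 0.208 and 0.155 (-2.75, SE 0.26, adjusted p = 1.95e-05), and DGKZ fell by 0.58 (SE 0.17, adjusted p = 0.0164), a call lost in 3 of 13 alternative analyses. The single rise was that of DGKG, which stayed below 0.1 FPKM in every library. Of the falls, that of DGKI was also at a low level, with at most 0.118 FPKM in any library. The call of DGKE (-0.45, adjusted p = 0.0477) was lost in 10 of 13 alternative analyses. DGKD, the most abundant of the family in both groups (-0.35, adjusted p = 0.0516), and DGKQ (-0.26, adjusted p = 0.228) did not pass. The family summed to 23.9 ± 1.50 FPKM in Empty and 13.3 ± 0.47 in LINC00862.

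The choline and ethanolamine branches, which make phosphatidylcholine and phosphatidylethanolamine, had 9 rises and 3 falls among 13 tested genes. The kinases that trap choline and ethanolamine and the transferases at the end of the branches rose, and the tested enzymes between them, which attach CTP-derived groups, fell. ETNK2 was an exception among the kinases. CHKA, choline kinase alpha, had 8.71, 11.2 and 10.1 FPKM in Empty and 17.4, 16.3 and 17.5 in LINC00862 (0.94, SE 0.17, adjusted p = 0.00108). ETNK1, an ethanolamine kinase, had 3.98, 2.57 and 2.69 FPKM against 6.93, 7.12 and 6.80 (1.36, SE 0.16, adjusted p = 8.64e-05). Its paralogue ETNK2 had 1.42, 1.09 and 1.40 FPKM against 0.068, 0.126 and 0.047 (-3.83, SE 0.38, adjusted p = 2.59e-05). PCYT1A, the rate-limiting enzyme of the choline branch, had 7.67, 5.70 and 5.63 FPKM in Empty and 3.96, 4.38 and 3.42 in LINC00862 (-0.51, SE 0.14, adjusted p = 0.0120). PCYT2, its counterpart for ethanolamine, had 14.8, 13.6 and 17.1 FPKM against 8.74, 9.36 and 7.78 (-0.64, SE 0.15, adjusted p = 0.00415). Neither overlapped between the groups, but the call of PCYT1A was lost under upper quartile scaling (-0.30, adjusted p = 0.0820). PCYT1B, a paralogue of PCYT1A, was not tested and had 8 counts in Empty and 62 in LINC00862. CHPT1, a cholinephosphotransferase, had 4.55, 4.96 and 4.77 FPKM against 10.8, 10.3 and 10.1 (1.29, SE 0.14, adjusted p = 4.91e-05). SELENOI, the ethanolamine counterpart, rose by 0.90 (SE 0.20, adjusted p = 0.00340), with overlap.

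Outside that core, PEMT, which methylates phosphatidylethanolamine to phosphatidylcholine and is best known from liver, had 3.96, 4.58 and 4.74 FPKM in Empty and 7.47, 6.05 and 4.88 in LINC00862 (0.63, SE 0.21, adjusted p = 0.0284). Its lowest LINC00862 library was just above the highest Empty library, and the call was lost in 8 of 13 alternative analyses. ACHE, acetylcholinesterase, which is listed here because it releases choline, had 0.091, 0.071 and 0.027 FPKM in Empty and 7.47, 6.67 and 6.66 in LINC00862 (6.90, SE 0.33, adjusted p = 3.56e-07). ETNPPL, which degrades phosphoethanolamine, had 0 counts in Empty and 68 in LINC00862, at least 21.6-fold higher against a floor of 3 counts over the group. It stayed low, at 0.069 to 0.151 FPKM. PHOSPHO1 did not pass (-0.14, adjusted p = 0.809).

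In the CDP-diacylglycerol, serine and cardiolipin branches, 7 of 9 genes fell and 2 rose. CDS1 and CDS2, which make CDP-diacylglycerol, moved in opposite directions. CDS1 had 0.583, 0.349 and 0.188 FPKM in Empty and 4.13, 4.62 and 4.03 in LINC00862 (3.70, SE 0.34, adjusted p = 1.82e-05). CDS2 had 6.17, 4.69 and 4.80 FPKM against 1.80, 1.76 and 1.27 (-1.52, SE 0.16, adjusted p = 3.53e-05). Their sum was 5.59 ± 1.01 FPKM in Empty and 5.87 ± 0.54 in LINC00862, a ratio of 1.05 with overlapping libraries. The share of CDS1 in this sum was 6.44% ± 2.47 in Empty and 72.7% ± 3.15 in LINC00862. CDIPT, phosphatidylinositol synthase, rose, with 15.6, 15.2 and 20.0 FPKM against 33.9, 32.2 and 23.5 (0.98, SE 0.18, adjusted p = 0.00129).

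The 6 members for phosphatidylserine, mitochondrial phosphatidylethanolamine and cardiolipin fell. PTDSS1, a phosphatidylserine synthase, had 23.4, 17.9 and 20.8 FPKM in Empty and 10.5, 10.6 and 6.68 in LINC00862 (-0.99, SE 0.17, adjusted p = 0.000931), and PTDSS2 fell by 0.96 (SE 0.17, adjusted p = 0.00109). PISD, which decarboxylates phosphatidylserine in mitochondria, had 8.26, 7.63 and 8.09 FPKM against 3.92, 3.67 and 4.08 (-0.86, SE 0.14, adjusted p = 0.000697). CRLS1, cardiolipin synthase, had 9.40, 10.5 and 9.45 FPKM against 5.42, 4.44 and 5.95 (-0.71, SE 0.18, adjusted p = 0.00704). PGS1 (-0.81) and TAZ, here tafazzin (-0.78), which also serve cardiolipin, fell by similar amounts. None of these 6 genes overlapped between the groups. PTPMT1 (-0.48, adjusted p = 0.0793) and TAMM41 (-0.45, adjusted p = 0.106), which serve cardiolipin synthesis but were not annotated to either pathway in the table, did not pass. Unlike the CDS pair, the phosphatidylserine synthases kept their proportions, with PTDSS1 at 72.6% ± 4.47 of the pair in Empty and 71.8% ± 4.34 in LINC00862.

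**Figure D3:**
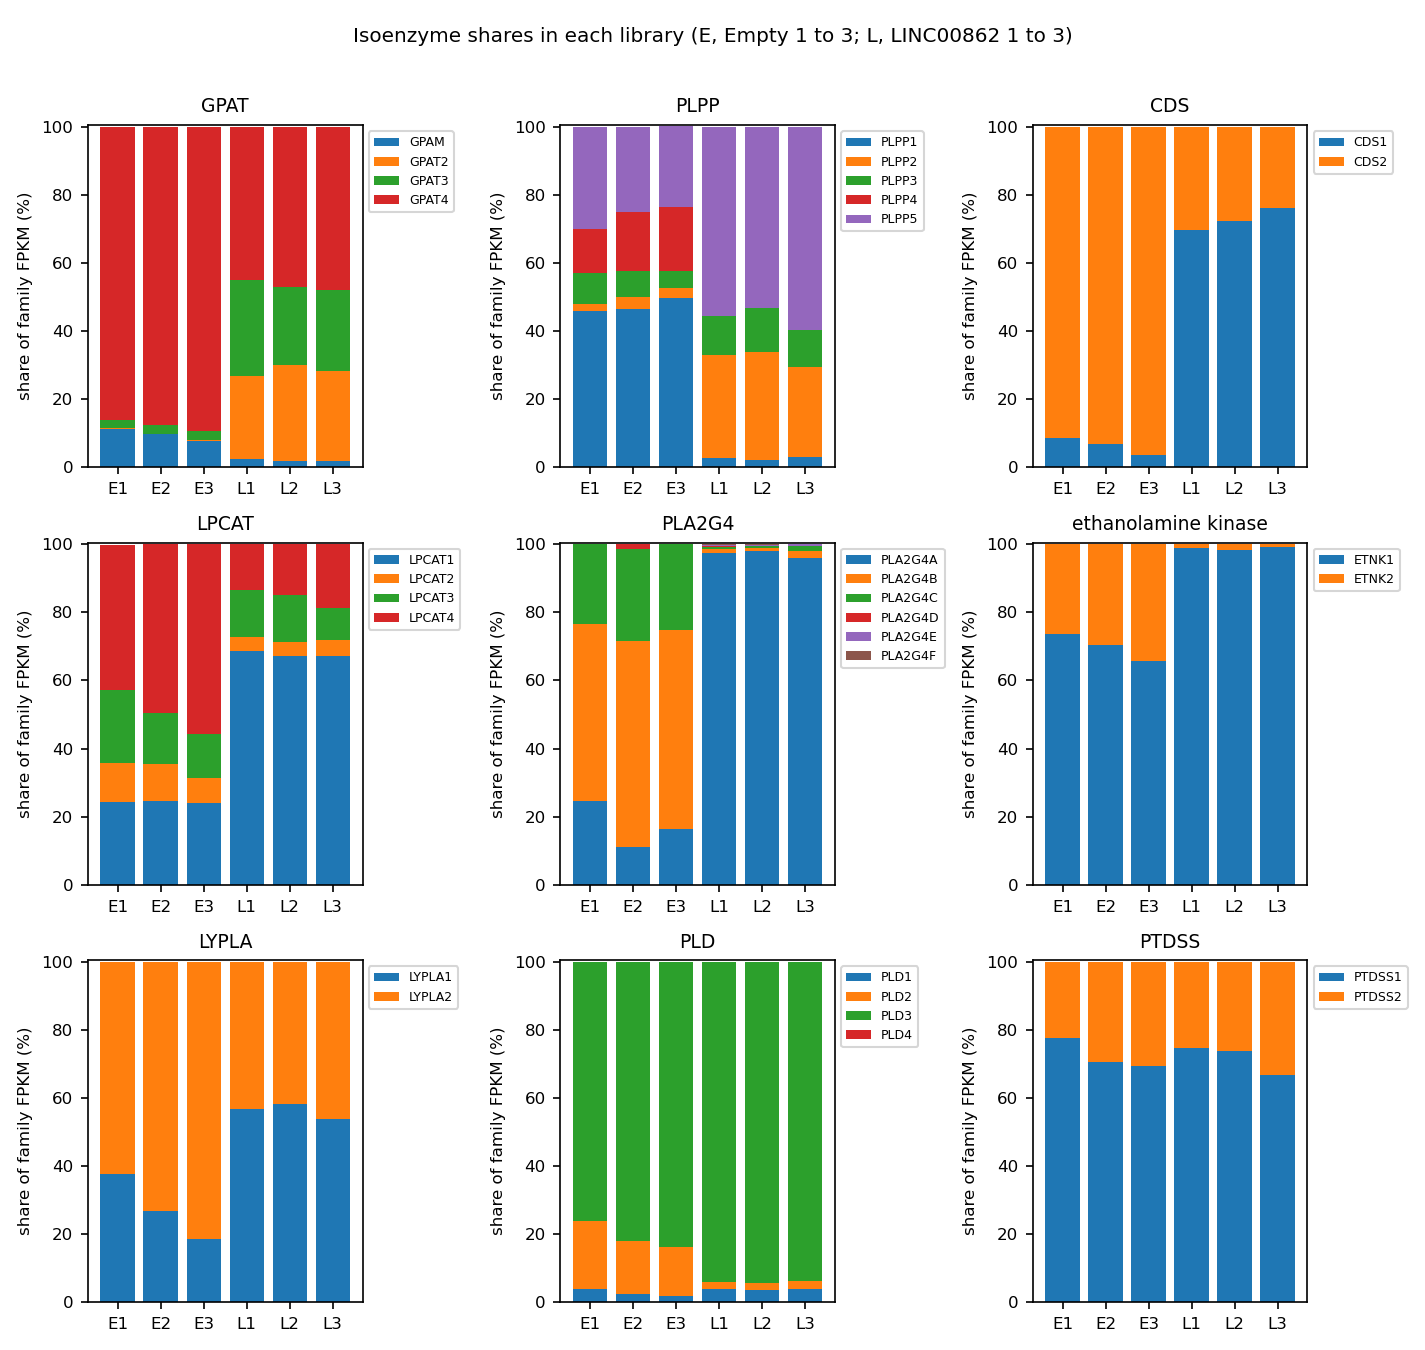
Share of each isoenzyme in the summed FPKM of its family (vertical axis, percent) in each of the 6 libraries for 9 families. The bars of CDS, LPCAT, PLPP and PLA2G4 differ in their largest segment between Empty and LINC00862, and those of PTDSS do not.

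The shares of isoenzymes were compared in 18 families of 62 genes. For 43 of the 62 genes the share within the family did not overlap between the groups. In a family that is a pair, the shares are complementary, so both of its genes were counted or neither was. Among all tested genes, the FPKM of 71.1% did not overlap, which is a background for FPKM and not for shares. A background for shares was not made. In 6 families the isoenzyme with the highest mean share differed between the groups. The changes were from GPD2 to GPD1L, PLPP1 to PLPP5, CDS2 to CDS1, LPCAT4 to LPCAT1, PLA2G4B to PLA2G4A and LYPLA2 to LYPLA1. By mean FPKM the lipins differed too, but LPIN2 (6.23) and LPIN3 (6.22) were nearly equal in Empty. In LINC00862 they had 4.29 and 8.20 FPKM. The PLA2G4 family was taken without its read-through gene. Shares were compared by a two-sided exact permutation test, whose smallest p with 3 against 3 libraries is 0.1 and whose smallest adjusted value was 0.144, so that no share could pass 0.05. The summed FPKM did not overlap in 13 families and was higher in LINC00862 in 7 of these. The overlapping families were GPAT, CDS, LYPLA, LPIN and PNPLA, whose group means lay at ratios of 0.996, 1.05, 1.05, 0.934 and 0.845.

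Of the 8 lysophospholipid acyltransferases, which rebuild phospholipids after deacylation, 6 fell, 1 rose and 1 did not pass. LPCAT1, which favours saturated acyl chains and is known from lung surfactant, had 5.04, 4.47 and 4.57 FPKM in Empty and 20.1, 19.3 and 16.3 in LINC00862 (2.15, SE 0.13, adjusted p = 1.47e-06). Its share of the LPCAT family was 24.4% ± 0.42 in Empty and 67.8% ± 0.89 in LINC00862. MBOAT2 had 5.60, 4.14 and 3.97 FPKM against 0.641, 0.703 and 0.526 (-2.69, SE 0.17, adjusted p = 1.57e-06), and MBOAT1 fell by 1.69 (SE 0.23, adjusted p = 0.000210). MBOAT7, which places arachidonate in phosphatidylinositol, fell by 1.03, and LPCAT4 by 0.98. LCAT, the secreted liver enzyme that esterifies cholesterol on lipoproteins, had 7.56, 10.6 and 10.4 FPKM in Empty and 0.252, 0.407 and 0.509 in LINC00862 (-4.38, SE 0.33, adjusted p = 4.82e-06). Of the 8 hepatocyte markers tested, 7 were higher in the same LINC00862 libraries, and SERPINA1 was lower (-3.55, SE 0.36, adjusted p = 3.2e-05). LPCAT3, which favours polyunsaturated chains, did not pass (0.24, adjusted p = 0.420).

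Among the 17 phospholipases A and B, 12 were tested, of which 7 rose and 3 fell. PLA2G4A, the cytosolic phospholipase that releases arachidonate for eicosanoids, had 0.183, 0.082 and 0.164 FPKM in Empty and 16.5, 15.2 and 12.1 in LINC00862 (6.82, SE 0.28, adjusted p = 1.46e-07). It made up 17.4% ± 6.73 of the PLA2G4 family in Empty and 97.2% ± 1.05 in LINC00862, and the family total was 0.826 ± 0.146 and 15.0 ± 2.21 FPKM. With the read-through gene JMJD7-PLA2G4B counted in the family, an alternative added after seeing the data, these shares were 5.44% ± 2.60 and 89.3% ± 3.09 and the totals 2.78 ± 0.51 and 16.3 ± 2.02 FPKM. PLA2G12A, a secreted form, had 4.36, 2.74 and 2.93 FPKM against 9.31, 9.24 and 9.03 (1.65, SE 0.17, adjusted p = 3.61e-05). PLA2G6, which is calcium-independent, had 0.470, 0.538 and 0.479 FPKM against 1.37, 1.59 and 1.67 (1.79, SE 0.21, adjusted p = 7.37e-05). Falling genes were PLAAT3, the main phospholipase A of adipose tissue, with 6.67, 6.97 and 10.3 FPKM against 1.19, 1.55 and 1.03 (-2.51, SE 0.25, adjusted p = 2.87e-05), and PLA2G15, the lysosomal form, with 6.60, 6.54 and 9.31 against 1.33, 1.71 and 1.59 (-2.10, SE 0.22, adjusted p = 3.29e-05). None of these 5 genes overlapped between the groups.

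Several secreted or rarely expressed phospholipases were listed at 0 in every Empty library. PLA2G2C had 506 counts in LINC00862, at least 161-fold higher, PLA2G4E had 77, at least 24.5-fold higher, and PLA2G10 had 37, at least 11.8-fold higher. All 3 stayed below 1 FPKM. PLB1 rose from a low level (2.26, SE 0.50, adjusted p = 0.00325), and PLA2G4B fell (-0.99, SE 0.39, adjusted p = 0.0484), a call lost in 7 of 13 alternative analyses. PLA2G4B shares sequence with the read-through gene JMJD7-PLA2G4B, which did not pass (-0.41, adjusted p = 0.206), so the values of both are uncertain. PLA2G4C did not pass either (-0.70, adjusted p = 0.170).

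The enzymes that inactivate platelet-activating factor, an ether phospholipid mediator, had 4 falls and 1 rise. PAFAH1B3 and PAFAH1B2 are the catalytic subunits of the brain-type enzyme and PAFAH1B1 (LIS1) its regulatory subunit. PAFAH1B3 had 25.0, 35.7 and 45.0 FPKM in Empty and 16.0, 15.6 and 13.6 in LINC00862 (-1.07, SE 0.24, adjusted p = 0.00330). PAFAH1B2 had 18.7, 12.8 and 16.2 FPKM against 5.89, 6.13 and 4.99 (-1.31, SE 0.15, adjusted p = 6.97e-05), and PAFAH1B1 fell by 0.83 (SE 0.20, adjusted p = 0.00577). All Empty libraries were above all LINC00862 libraries for the 3 subunits. PAFAH2, a separate cytosolic enzyme, rose, with 2.39, 2.16 and 2.14 FPKM against 7.11, 7.50 and 5.39 (1.75, SE 0.16, adjusted p = 1.47e-05). PLA2G7, the plasma form, was below 1 FPKM and fell by 1.51 (SE 0.49, adjusted p = 0.0223), a call lost without LINC00862 replicate 2 (adjusted p = 0.0777) or replicate 3 (adjusted p = 0.0764).

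Phospholipases D and lysophospholipases D split evenly, with 3 rises and 3 falls. PLD1 and PLD2 release phosphatidic acid from phosphatidylcholine. PLD2 had 5.65, 4.61 and 5.15 FPKM in Empty and 0.896, 0.960 and 0.873 in LINC00862 (-2.30, SE 0.16, adjusted p = 3.12e-06). PLD1 had 1.07, 0.724 and 0.633 FPKM against 1.86, 1.77 and 1.50 (1.26, SE 0.19, adjusted p = 0.000354). The order of the pair therefore differed between the groups. PLD3, a lysosomal enzyme known to act as an exonuclease, rose by 0.88 (SE 0.18, adjusted p = 0.00243). GDPD1 and GDPD3, lysophospholipases D, also moved in opposite directions, GDPD1 by 2.40 (SE 0.27, adjusted p = 5.47e-05) and GDPD3 by -3.55 (SE 0.38, adjusted p = 4.32e-05). ENPP2, autotaxin, which makes extracellular lysophosphatidic acid, was low in both groups (0.203 ± 0.022 FPKM in Empty and 0.062 ± 0.032 in LINC00862) and fell by 1.52 (SE 0.45, adjusted p = 0.0146), a call lost without LINC00862 replicate 2 or 3.

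Of the 7 lysophospholipases and glycerophosphodiester phosphodiesterases, 3 rose, 2 fell and 2 did not pass. GPCPD1, which cleaves glycerophosphocholine, had 3.82, 3.12 and 2.49 FPKM in Empty and 13.5, 13.8 and 15.3 in LINC00862 (2.36, SE 0.18, adjusted p = 4.45e-06). LYPLA1, which also removes palmitate from proteins, had 14.0, 10.3 and 8.62 FPKM against 25.6, 28.3 and 18.2 (1.31, SE 0.19, adjusted p = 0.000269). Its paralogue LYPLA2 did not pass (-0.52, adjusted p = 0.0547). PNPLA7 had 0.211, 0.266 and 0.261 FPKM against 2.09, 2.40 and 2.14 (3.31, SE 0.21, adjusted p = 1.58e-06). PNPLA6, neuropathy target esterase, fell by 0.48 (SE 0.18, adjusted p = 0.0427), a call lost in 7 of 13 alternative analyses. TMEM86B, which hydrolyses lysoplasmalogens, fell by 1.51 (SE 0.49, adjusted p = 0.0242), a call lost in 5 of 13, and ADPRM did not pass (0.54, adjusted p = 0.101).

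The largest rise among members with any counts in Empty was that of UGT8, the galactosyltransferase that makes galactosylceramide, a lipid of myelin. UGT8 had 0.013, 0.013 and 0.014 FPKM in Empty, where its counts summed to 13, and 7.60, 8.51 and 7.33 in LINC00862, where they summed to 7168 (9.16, SE 0.23, adjusted p = 2.63e-08). GAL3ST1, the sulfotransferase that acts after it, had 0 counts in Empty and 77 in LINC00862, at least 24.5-fold higher, and remained at 0.097 to 0.131 FPKM.

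**Figure D4:**
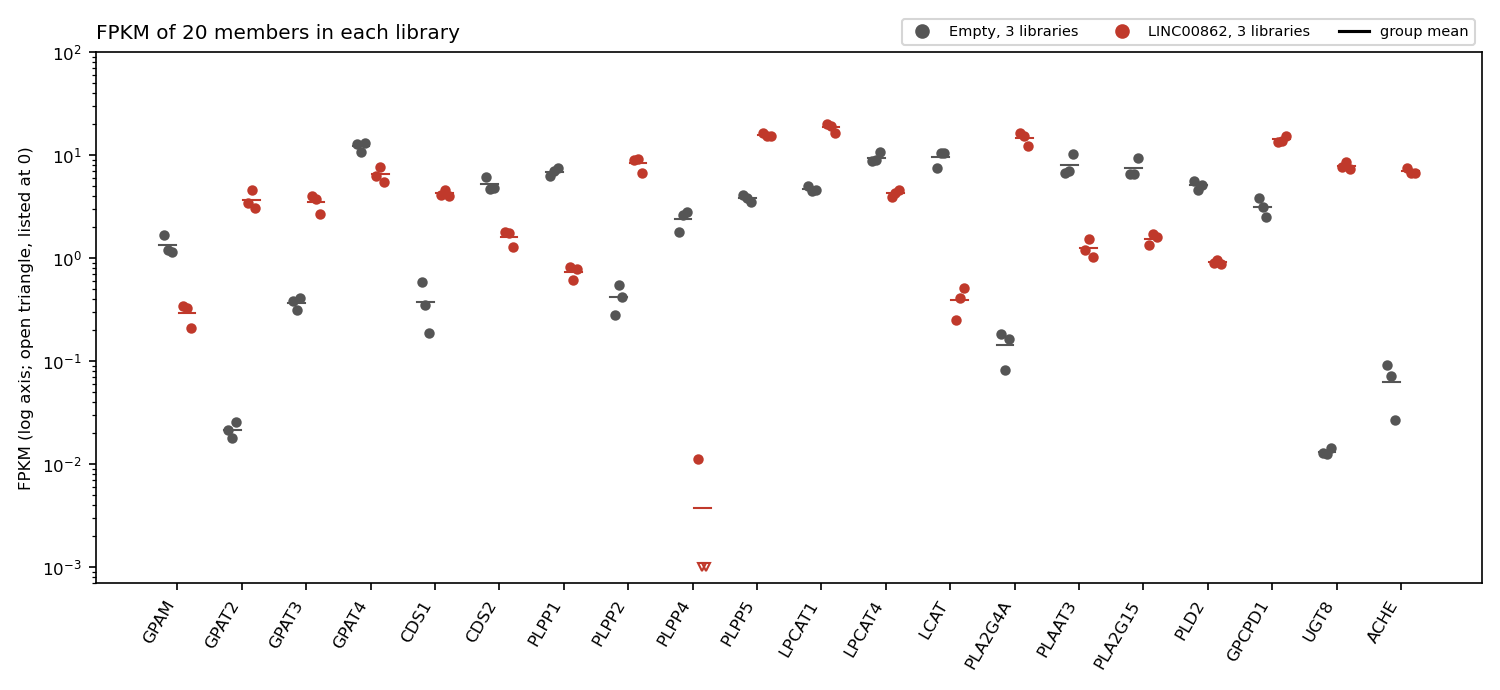
FPKM (vertical, log axis) of 20 members in each of the 3 Empty (grey) and 3 LINC00862 (red) libraries, with the group mean as a bar. An open triangle marks a library listed at 0. The points of the groups are separate for each of the 20 genes.

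The location that the table's GO annotation gives the products split the members in different ways. Of 15 tested members annotated to the Golgi, 12 rose and 1 fell, and among all 1593 tested genes with that annotation 561 rose and 558 fell. Of 20 annotated to the mitochondrion, 7 rose and 11 fell, against 579 and 566 of 1692. For the endoplasmic reticulum membrane, 18 of 43 rose and 19 fell, against 350 and 305 of 924. Further locations were counted too. For the plasma membrane, 16 of 36 rose and 16 fell, against 1362 and 1368 of 3804. For the cytosol, 12 of 33 rose and 12 fell, against 1323 and 2049 of 4840. The remaining sets held few members. For the extracellular annotation, 5 of 11 rose and 6 fell, against 698 and 630 of 1764. For the lysosome, 4 of 5 rose and 1 fell, against 209 and 221 of 612. For the peroxisome, 1 of 3 rose and 2 fell, against 58 and 49 of 159. These annotations overlap, and the differences from all genes were not tested.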

How the data were processed

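RNA-seq counts and FPKM of 6 libraries were used. Counts were deposited by the authors as reads per gene, without normalization. FPKM was computed by the authors from fragments, transcript length and mapped fragments. The labels' processing notes name cutadapt 1.9, HISAT2 2.0.4, UMI-tools, StringTie 1.3.4d, DESeq2, edgeR and hg38, with no role or order. The libraries were made with dUTP, which keeps the strand of the RNA. The strand setting of the counting is not given in the sources used here. In GENCODE 29, which held all 102 members, 23 overlapped a gene on the same strand and 41 a gene on the opposite strand, and reads there may be shared.

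Members were the rows annotated to either KEGG pathway. The members and lists were chosen with earlier results of these data known. Counts of all genes were fitted with edgeR 4.0.16 in R 4.3.3 (filterByExpr, TMM, quasi-likelihood test, Benjamini-Hochberg adjustment at 0.05). Standard errors were derived from the test statistic. The named members were fixed key enzymes and, in each list, up to 3 rises and 3 falls among called members whose group mean reached 1 FPKM in either group, with those that did not pass. Other members named were chosen after their values were seen. Isoenzyme shares are parts of the summed FPKM of a family. A count of 3 over a group was the floor for lower bounds, which cover counting error only.

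The fits were tested on simulated data. Alternatives were DESeq2 1.42.0, upper quartile scaling, library size scaling, every gene with at least 1 count, a replicate block, limma-trend (limma 3.58.1) on log2(FPKM + 1) and log2(FPKM + 0.1), a test against a fold change of 2, a false discovery rate of 0.01 and leaving out each library in turn.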

Additional observations from a re-analysis of the deposited data

How the results depend on the processing

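LPIN1, LCLAT1 and PHOSPHO1, which did not pass in the main analysis, reversed in direction in 1, 4 and 3 of 13 alternative analyses. The reversal of LPIN1 was to a log2 fold change of 0.0224 under upper quartile scaling. Tested against a fold change of 2, 44 members were called, 27 upward and 17 downward. In the other alternatives 68 to 83 members were called, and 72 to 83 when each library was left out in turn. Of the 82 called members, 68 kept their call in all 13 refits that tested for any change at the same threshold. Upper quartile scaling moved the median log2 fold change of all genes from 0.11 to 0.32, and scaling by library size alone moved it to -0.05. The direction of members that changed by less than this shift depends on the scaling. Calls of some members with larger changes were lost as well (edgeR). Examples are TMEM86B (-1.51) under upper quartile scaling (adjusted p = 0.0509) and GPD2 (0.68) under library size alone (adjusted p = 0.0925). Upward calls made up 48.8% of the called members, 54.7% under upper quartile scaling and 44.4% under library size alone. Same-numbered libraries did not deviate together (correlations of -0.05, -0.03 and -0.01), and no label pairs them. With the replicate block, 75 members were called, 38 upward and 37 downward.

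Of the called members, 14 lost their call when 1 library was left out. With the highest adjusted p in edgeR, these were GNPAT (0.146 without LINC00862 replicate 1, also lost without Empty replicate 2 or LINC00862 replicate 2), PEMT (0.136 without LINC00862 replicate 1, also lost without LINC00862 replicate 2, Empty replicate 1 or Empty replicate 2), PNPLA6 (0.148 without LINC00862 replicate 3, also lost without LINC00862 replicate 1, Empty replicate 2 or Empty replicate 3) and TMEM86B (0.0883 without LINC00862 replicate 1, also lost without LINC00862 replicate 2, Empty replicate 2 or Empty replicate 3). The others were GPD2 (0.0637 without Empty replicate 2), DGKZ (0.0651 without LINC00862 replicate 3), PCYT1A (0.0524 without LINC00862 replicate 1), ENPP2 (0.0523 without LINC00862 replicate 3), PLA2G4B (0.154 without LINC00862 replicate 2), PLA2G7 (0.0777 without LINC00862 replicate 2), DGKE (0.119 without LINC00862 replicate 2), LPCAT2 (0.129 without LINC00862 replicate 2), AGPAT1 (0.0915 without LINC00862 replicate 3) and CEPT1 (0.0723 without LINC00862 replicate 1). The cause was not tested. Of 440 recomputed isoenzyme shares, 29 moved by more than the spread between libraries. A reversal in direction was counted only for the 43 genes whose shares did not overlap between the groups, and 0 were found. For the other genes, a change of direction was not counted. Members under 1 FPKM rest on few counts, which limits the precision of their fold changes.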

Other observations

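Genes next to these pathways were taken from 3 further lists, beside a background of 64.2% of all tested genes changed. Of 6 accessory genes of plasmalogen metabolism, FAR2, a fatty acyl reductase that supplies fatty alcohols (log2 fold change 1.40), TMEM86A, a lysoplasmalogenase (5.50), and AGMO, which cleaves ether lipids, rose, whereas FAR1, PEX5 and PEX7 did not pass (edgeR, adjusted p under 0.05), so that 50.0% changed. TMEM86A had 0.114, 0.129 and 0.157 FPKM in Empty and 6.12, 6.42 and 4.11 in LINC00862, while its paralogue TMEM86B, a member, fell. Of 8 choline and ethanolamine transporters, 7 were tested, 5 rose and 1 fell (85.7% changed). FLVCR1 rose by 1.74 on the log2 scale, from 2.11 ± 0.36 FPKM (SD, n = 3) in Empty to 6.24 ± 0.37 in LINC00862. SLC44A2 fell, with 27.9, 21.1 and 28.2 FPKM in Empty and 2.35, 2.36 and 1.67 in LINC00862 (-3.42). Neither gene overlapped between the groups.

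Of the 7 receptors of lysophosphatidic acid and platelet-activating factor, 5 were tested. PTAFR, the receptor of platelet-activating factor, rose (2.12), as did LPAR2 (0.74), and LPAR3 fell (-4.95), whereas LPAR1 and LPAR6 did not pass. The share changed, 60.0% of these 5, was near the background of 64.2%.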
